A study of Mus musculus with 6 samples.

Results

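The antioxidant and glutathione genes of corneal keratocytes were examined with Sod3, the gene for the superoxide dismutase that is secreted into the extracellular matrix. Keratocytes are the resident stromal cells of the cornea and produce its collagen. RNA-seq had been performed on keratocytes isolated by FACS from mice recorded as aged 10 weeks, in 2 groups with 3 libraries each. The paper describes tamoxifen at 2 months of age, so which time point the 10 weeks refers to was not settled here. The Ptch1-ablated group carried Prrx1-CreERT, a tamoxifen-inducible Cre driven by Prrx1, together with floxed Ptch1 (Prrx1-CreERT;Ptch1 f/f). The titles of the control samples carry the letters WT, and whether those mice held the Cre or floxed Ptch1 was not given. Both groups received 3 doses of tamoxifen and were taken after 1 month, so the drug is shared by the controls. Ptch1 encodes the Hedgehog receptor that keeps the signal transducer Smo inactive, and its loss is used to switch on Hedgehog signaling. Prrx1-CreERT also recombines in corneal endothelial cells, so the deletion was not limited to keratocytes.

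The set held 43 genes of the 17606 in the deposited table, and all 43 had enough counts to be tested, among 13888 tested genes. Its genes were chosen by name, as antioxidant and glutathione enzymes with the regulators Nrf2 and Keap1, and were picked with the Ptch1-ablated against control values of these libraries already known, with the low Sod3 of the ablated libraries in view. The comparison between the groups is therefore a description for these 43 genes: levels, log2 fold changes and intervals are given, with no p-value. A gene is said to have risen or fallen where its adjusted p, from edgeR's quasi-likelihood test over all 13888 genes, was at most 0.05.

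Aerobic cells form superoxide, which superoxide dismutases turn into hydrogen peroxide. Catalase, glutathione peroxidases and peroxiredoxins then remove the peroxide. The glutathione peroxidases and peroxiredoxins use electrons that reach them from NADPH through glutathione or thioredoxin. Glutathione S-transferases join glutathione to reactive compounds, methionine sulfoxide reductases repair oxidized methionine, and the transcription factor Nrf2 (Nfe2l2), held back by Keap1, switches on many of these genes under oxidative stress. The cornea is exposed to light and oxygen, and its stroma is known for a high content of extracellular superoxide dismutase.

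Many Nrf2 target genes carry an antioxidant response element near the transcription start, and the upstream sequences of a few members are shown to display this feature beside the expression values given further on. They were taken from RefSeq on build GRCm38.p6, as the 250 bases before the start, read 5′ to 3′ on the strand of the gene. Capitals mark a match to the core TGACNNNGC, or to GCNNNGTCA, which is the same core on the other strand. Gclm, Prdx1 and Sod1 are shown for their match, and Gstt1 is shown as the gene with the strongest fall among those that have a window.
Gclm, chr3:122245307-122245556, plus strand: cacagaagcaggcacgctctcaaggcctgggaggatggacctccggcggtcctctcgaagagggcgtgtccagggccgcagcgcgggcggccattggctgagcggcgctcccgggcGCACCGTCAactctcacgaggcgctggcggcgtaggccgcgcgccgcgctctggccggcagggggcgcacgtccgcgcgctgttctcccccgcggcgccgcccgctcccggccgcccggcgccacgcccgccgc
Prdx1, chr4:116685349-116685598, plus strand: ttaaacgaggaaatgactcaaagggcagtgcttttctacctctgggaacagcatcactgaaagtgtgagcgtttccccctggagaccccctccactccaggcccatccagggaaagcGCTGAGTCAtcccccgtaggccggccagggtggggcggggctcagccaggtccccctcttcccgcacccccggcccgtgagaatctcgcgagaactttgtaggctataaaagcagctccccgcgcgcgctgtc
Sod1, chr16:90220512-90220761, plus strand: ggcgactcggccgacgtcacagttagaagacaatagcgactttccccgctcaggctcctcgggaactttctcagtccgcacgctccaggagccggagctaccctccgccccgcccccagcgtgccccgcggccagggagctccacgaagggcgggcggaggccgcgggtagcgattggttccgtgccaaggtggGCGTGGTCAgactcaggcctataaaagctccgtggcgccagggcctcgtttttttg
Gstt1, chr10:75797732-75797981, minus strand: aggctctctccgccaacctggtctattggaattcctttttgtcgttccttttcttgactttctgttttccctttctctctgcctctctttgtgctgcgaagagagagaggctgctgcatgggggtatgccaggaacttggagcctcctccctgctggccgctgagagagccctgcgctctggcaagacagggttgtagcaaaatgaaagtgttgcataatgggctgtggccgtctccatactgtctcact

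Promoter windows, from 250 bases before to 50 after the start, were found for 36 of the 43 genes, with 46 windows in all. Sod3, Gsta4, Gsr, Hmox1, Msra, Prdx6 and Gclc have none in the table used. The core stood in a window of 9 of the 36 genes (25.0%), against 3781 of 27025 genes in the whole table (14.0%), and in 9 of 46 windows (19.6%) against 4071 of 32851 (12.4%). Those 9 genes were Gclm, Gstm5, Mgst1, Msrb2, Nfe2l2, Prdx1, Sod1, Srxn1 and Txnrd1. The Gli motif GACCACCCA, or TGGGTGGTC on the other strand, was in 0 of the 46 windows and in 83 of the 32851 (0.253%). The 2 motifs do not overlap in these windows, since the second was not found. A match is only a string of letters in this window.

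Library totals ran from 20258414 to 24788039 counts in controls and from 21729844 to 23530490 in ablated libraries. Counts are given as CPM, counts per 1000000 of the library total after scaling by the trimmed mean of M-values (TMM), and a count of 0 allows a level of up to 3 counts, which is 0.121 to 0.158 CPM (counting error only). The first principal component separated the groups, and on the second, control replicate 1 and ablated replicate 2 stood away from the remaining libraries. Ptch1 was higher in the libraries labelled Ptch1-ablated (means of 9.84 and 219 CPM, SD 5.60 and 32.8, n = 3 each), by 4.47 ± 0.35 on the log2 scale (SE, edgeR adjusted p = 6.83e-06). A gene total does not resolve the floxed exons, so this value does not check the deletion. Gli1 and Hhip, which the pathway switches on, rose by 7.15 and 9.97 on the log2 scale (edgeR adjusted p = 5.35e-06 and 2.00e-09).

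The sorted cells were checked by marker genes, summed per library. Keratocyte markers summed to between 49947 and 51577 CPM in controls and between 27593 and 34163 in ablated libraries. Above 3 counts in every library were 6 of the 7, with Ptgds near 0. The markers did not move alike, since 5 of the 6 tested fell and Lum did not pass (means of 11298 and 10747 CPM). Their log2 fold changes ran from -1.74 for Aldh1a1 to -0.07 for Lum. Markers of corneal endothelium summed to 7433 to 8521 CPM in controls and 3860 to 4672 in ablated libraries, carried by Aqp1 (means of 7266 and 3670 CPM). Of the 5 markers 3 were fitted higher and 2 lower. Car3 rose from near 0 (means of 0.210 and 8.37 CPM), Aqp1 fell, and Slc4a11 (means of 4.82 and 20.9 CPM) did not pass. In isolated corneal endothelium, by qPCR, the paper found no significant change of Aqp1 after Ptch1 deletion. Which cells the Aqp1 reads came from was not tested, so this sum does not measure endothelial content. Higher sums in the ablated libraries were found for leukocytes (2488 to 2622 against 3238 to 3255 CPM), vascular endothelium (673 to 858 against 972 to 1030), mural cells (349 to 354 against 628 to 636) and Schwann cells (165 to 176 against 203 to 220). Of the vascular markers 6 were fitted higher and 1 lower, Kdr (means of 553 and 420 CPM). All 6 mural cell markers were fitted higher. Of the Schwann cell markers 5 were fitted higher and 1 lower, Mbp (means of 84.0 and 74.6 CPM). The leukocyte sum was carried by Cd74, at 1589 CPM in the control mean and 2307 in the ablated mean, since 4 of its 8 markers were fitted higher and 4 lower (Lyz2, Adgre1, Cd68 and Cd52), with a median log2 fold change of 0.03. Corneal epithelium markers were low in both groups (40.2 to 70.1 against 2.29 to 9.42 CPM) and did not move alike. Krt15 (means of 35.5 and 0.313 CPM), Krt14 and Krt5 fell. Krt12, at 0 in every control, rose to a mean of 1.69 CPM, and Cdh1 and Epcam did not pass. Dsp was at 0 in every ablated library. Melanocyte markers were near 0 (3.72 to 7.22 against 4.59 to 7.61 CPM), with Dct at 0 in every ablated library. These sums move with the groups, and their part in the values of the antioxidant genes was not tested. In bulk libraries, fewer cells of a type and less RNA per cell cannot be told apart.

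Of the 43 genes, 6 passed the adjusted p (14.0%, against 8.48% of all genes tested), and 3 passed it with a fold change of at least 2 (6.98% against 5.49%). Sod3, Gstt1, Msrb2, Gsto1 and Gpx4 fell, which makes 5 lower genes (11.6%, against 3.80% of all genes), and Gstm1 rose, which makes 1 higher gene (2.33% against 4.68%). Sod3, Gstt1 and Msrb2 are the ones past the fold minimum. Without control replicate 1 and ablated replicate 2 together, 6 genes passed the adjusted p, with Gpx3 among them in place of Gpx4, and Sod3 alone passed the fold minimum. With limma on log2(TPM + 1) the adjusted p was passed by 8 genes, 4 higher and 4 lower, and with log2(TPM + 0.1) by 7, 3 higher and 4 lower. Because the set was picked on this contrast, nothing is read from these shares or from the counts by role given below. The 3 libraries of one group lay wholly above or below those of the other for 12 genes (27.9%), against a share of 27.40% over all genes tested, and 9 of the 12 were lower in ablated libraries. The median log2 fold change was -0.12 over the 43 genes and 0.0046 over all genes, turned to 0.042 against 0.17 with library totals only, 0.099 against 0.19 with TPM + 1 and 0.018 against -0.0011 without those 2 libraries, and the median size without sign was 0.34 against 0.36.

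**Figure D1:**
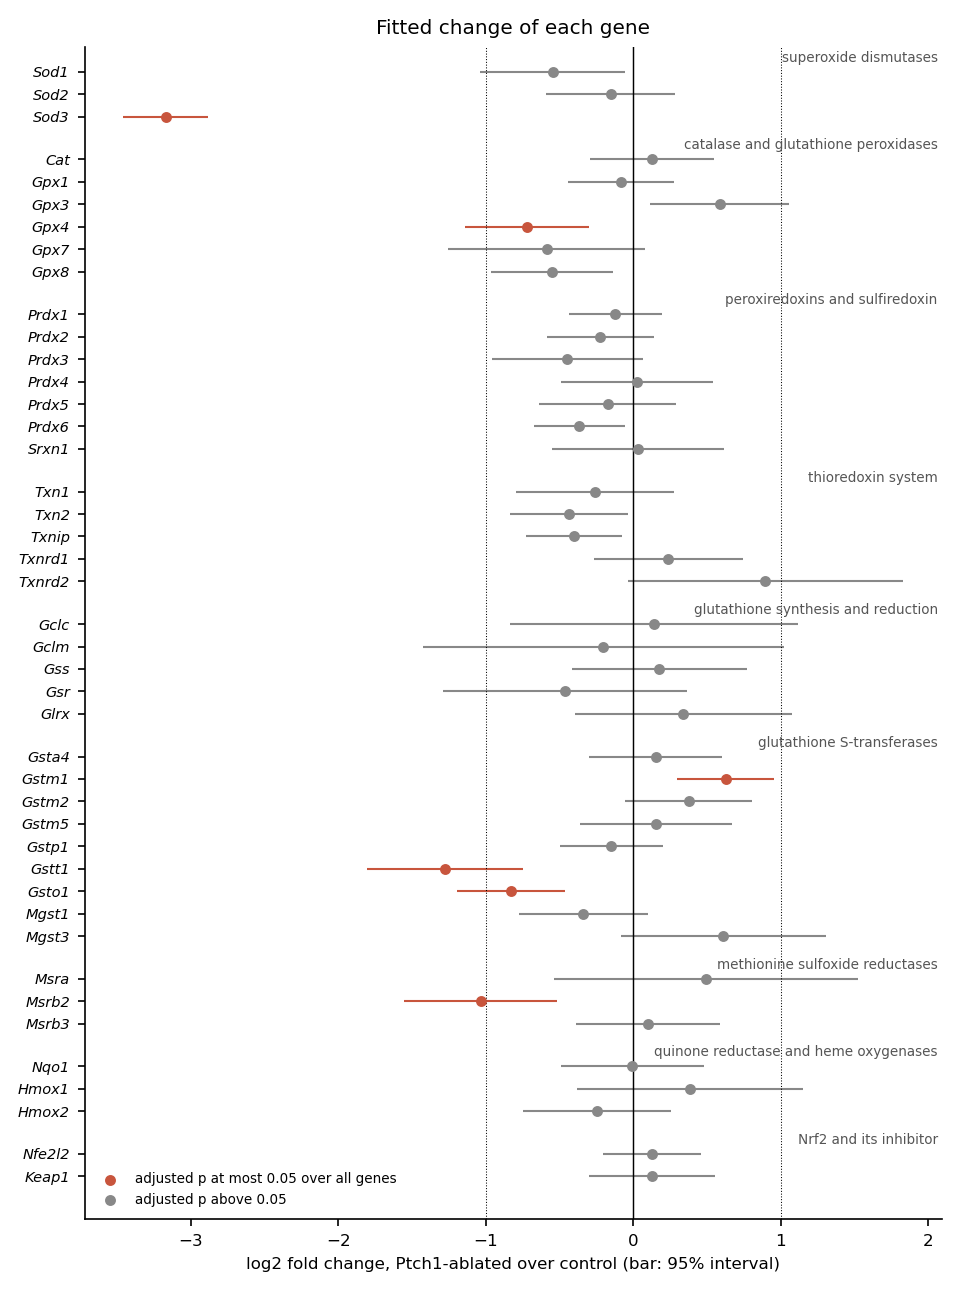
Log2 fold change of each of the 43 genes (Ptch1-ablated over control, n = 3 each) with its 95% interval, ordered by role; red marks an adjusted p of at most 0.05 over all genes tested, and dotted lines mark 2-fold changes. Sod3, at -3.17, lies apart from the other 42 genes, which run from -1.28 for Gstt1 to 0.90 for Txnrd2.

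The superoxide dismutases were led by Sod3 (Entrez 20657). Its level was 1933, 2088 and 2050 CPM in control replicates 1 to 3 and 258, 220 and 198 CPM in ablated replicates 1 to 3. Every ablated library was far below every control, and the group means of 2024 ± 80.8 and 225 ± 30.3 CPM (SD, n = 3 each) differ 8.99-fold. The fitted log2 fold change was -3.17 ± 0.13 (SE, 95% interval -3.46 to -2.88), and 78 of the 13888 genes had a lower one. Sod3 was also steady among controls, with a coefficient of variation of 3.99%, against a median of 17.7% over the 43 genes and 23.1% over all genes tested.

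The intracellular superoxide dismutases did not pass the test. Sod1, the copper and zinc enzyme of the cytosol, had 147, 133 and 97.0 CPM in controls and 70.5, 71.9 and 115 CPM in ablated libraries. The groups overlapped through ablated replicate 3, which was above control replicate 3, and the log2 fold change was -0.55 ± 0.23 (SE, 95% interval -1.04 to -0.05). Sod2, the manganese enzyme of mitochondria, had 67.9, 87.8 and 110 CPM in controls and 78.7, 71.5 and 88.8 CPM in ablated libraries, with a log2 fold change of -0.15 ± 0.20 (SE). The 3 control libraries of Sod2 spanned a wider range than the ablated ones and enclosed them all.

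Levels of different genes were compared as TPM, which divides by transcript length. On that scale Sod3 ranked first among the 43 genes in controls, at 2228 TPM (2098 to 2313), and did not overlap with the next gene, Gpx4, at 965 TPM (756 to 1084). In ablated libraries it ranked ninth, at 287 TPM (242 to 324), below Txnip at 415 TPM and overlapping with Prdx2 at 279 TPM. Within the superoxide dismutase transcripts, Sod3 held 73.5, 76.6 and 80.7% of the summed TPM in controls and 42.2, 37.7 and 26.0% in ablated libraries, a mean of 76.9 ± 3.58% against 35.3 ± 8.35% (SD, n = 3 each). The ratio of Sod3 to Sod1, on the same scale, was 2.92, 3.51 and 4.70 in controls and 0.823, 0.673 and 0.382 in ablated libraries. Thus Sod3 was above Sod1 in every control library and below it in every ablated one.

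**Figure D2:**
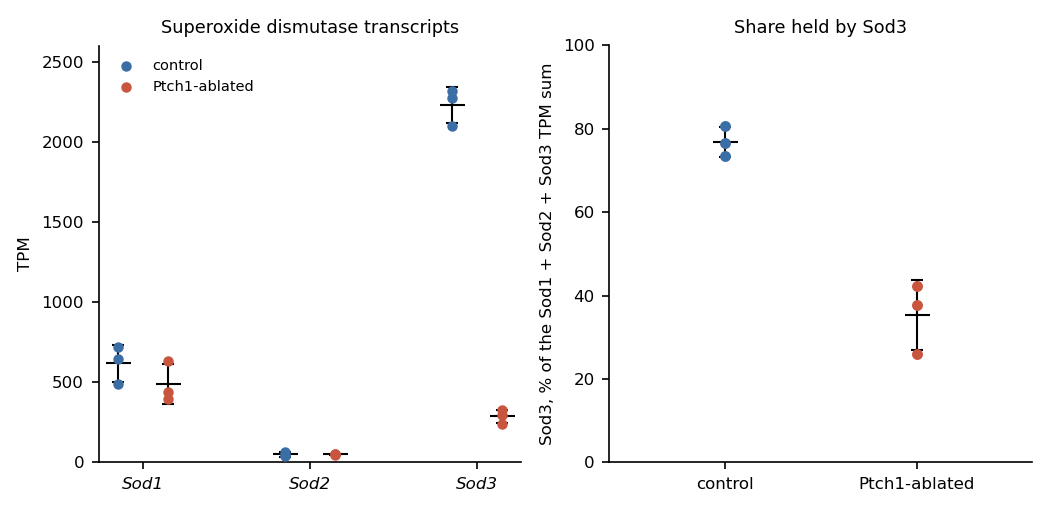
Left, TPM of Sod1, Sod2 and Sod3 in each library (points), with the group mean and SD (bars, n = 3); right, the percent of the summed TPM of these 3 genes that Sod3 held in each library. The Sod3 share lies between 73.5 and 80.7% in controls and between 26.0 and 42.2% in ablated libraries.

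Together the 43 genes summed to 11015 ± 851 TPM in the control group and 8994 ± 639 in the ablated group (SD, n = 3 each), without overlap. Without Sod3 the sums were 9431, 9211 and 7720 TPM in controls and 8720, 8035 and 9364 TPM in ablated libraries, or 8787 ± 931 against 8706 ± 665 (SD, n = 3 each), and the groups overlapped. The share of the summed TPM held by Sod3 was 20.3 ± 2.48% in the control group and 3.22 ± 0.607% in the ablated group. The median log2 fold change of all genes was 0.19 with limma on log2(TPM + 1), against 0.0046 with edgeR and TMM scaling, so levels summed in TPM are to be read beside that shift.

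Catalase (Cat), which breaks down hydrogen peroxide in peroxisomes, had 69.2, 87.1 and 78.2 CPM in controls and 97.9, 65.5 and 92.1 CPM in ablated libraries, so the groups overlapped (log2 fold change 0.12 ± 0.19, SE). Of the 5 glutathione peroxidases, Gpx4 fell. Gpx4 reduces lipid peroxides in membranes and contains selenocysteine, as do Gpx1 and Gpx3. Its level was 310, 304 and 208 CPM in controls and 161, 135 and 203 CPM in ablated libraries, and the fitted change was -0.72 ± 0.19 on the log2 scale (SE, 95% interval -1.14 to -0.30). The groups did not overlap, but control replicate 3 and ablated replicate 3 were nearly equal. This call was lost in 9 of 15 alternative settings, among them each of leaving out control replicate 1, control replicate 2, ablated replicate 1 or ablated replicate 2, whereas its log2 fold change stayed between -0.89 and -0.49. With the replicate number as a block the value was -0.72 and the call was also lost.

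The other glutathione peroxidases did not pass. Gpx1, the abundant cytosolic enzyme, had 317, 292 and 248 CPM in controls and 246, 233 and 330 CPM in ablated libraries, and ablated replicate 3 was the highest of all 6 libraries (log2 fold change -0.08 ± 0.16, SE). Gpx3, the secreted enzyme, had 68.0, 44.5 and 42.0 CPM in controls and 79.3, 68.2 and 84.6 CPM in ablated libraries. Its groups did not overlap, although control replicate 1 and ablated replicate 2 were nearly equal, and the log2 fold change was 0.59 ± 0.22 (SE, 95% interval 0.12 to 1.06). Without control replicate 1 Gpx3 passed, at 0.84, and without both that library and ablated replicate 2 it passed at 0.92. Gpx7 and Gpx8 reside in the endoplasmic reticulum, where disulfide bonds of secreted proteins form. Gpx8 had 79.1, 66.9 and 68.1 CPM in controls and 41.4, 47.6 and 57.4 CPM in ablated libraries, lower in each ablated library than in each control (log2 fold change -0.55 ± 0.19, SE). Gpx7 was at 26.1 ± 6.34 and 17.4 ± 5.49 CPM (SD, n = 3 each), with overlapping groups and a log2 fold change of -0.59 ± 0.31 (SE).

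The peroxiredoxins reduce peroxides with a reactive cysteine, and none of the 6 passed the test, nor did Srxn1, sulfiredoxin, which restores peroxiredoxins that peroxide has overoxidized. Fitted log2 fold changes of these 7 genes ran from -0.45 for the mitochondrial Prdx3 to 0.03 for Srxn1, with 5 below 0. Prdx6, the most abundant of them, had 724, 668 and 600 CPM in controls and 549, 426 and 570 CPM in ablated libraries. All 3 ablated libraries were below the lowest control, and the log2 fold change was -0.37 ± 0.14 (SE, 95% interval -0.67 to -0.06). Prdx1 of the cytosol had 275, 272 and 210 CPM in controls and 243, 218 and 235 CPM in ablated libraries, all 3 of them inside the range of the controls. Prdx1 and Srxn1, which share the antioxidant response element core in their windows, had log2 fold changes of -0.12 ± 0.15 and 0.03 ± 0.27 (SE). Prdx2 and Prdx5 lay at -0.22 and -0.17, and Prdx4 of the endoplasmic reticulum at 0.02.

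**Figure D3:**
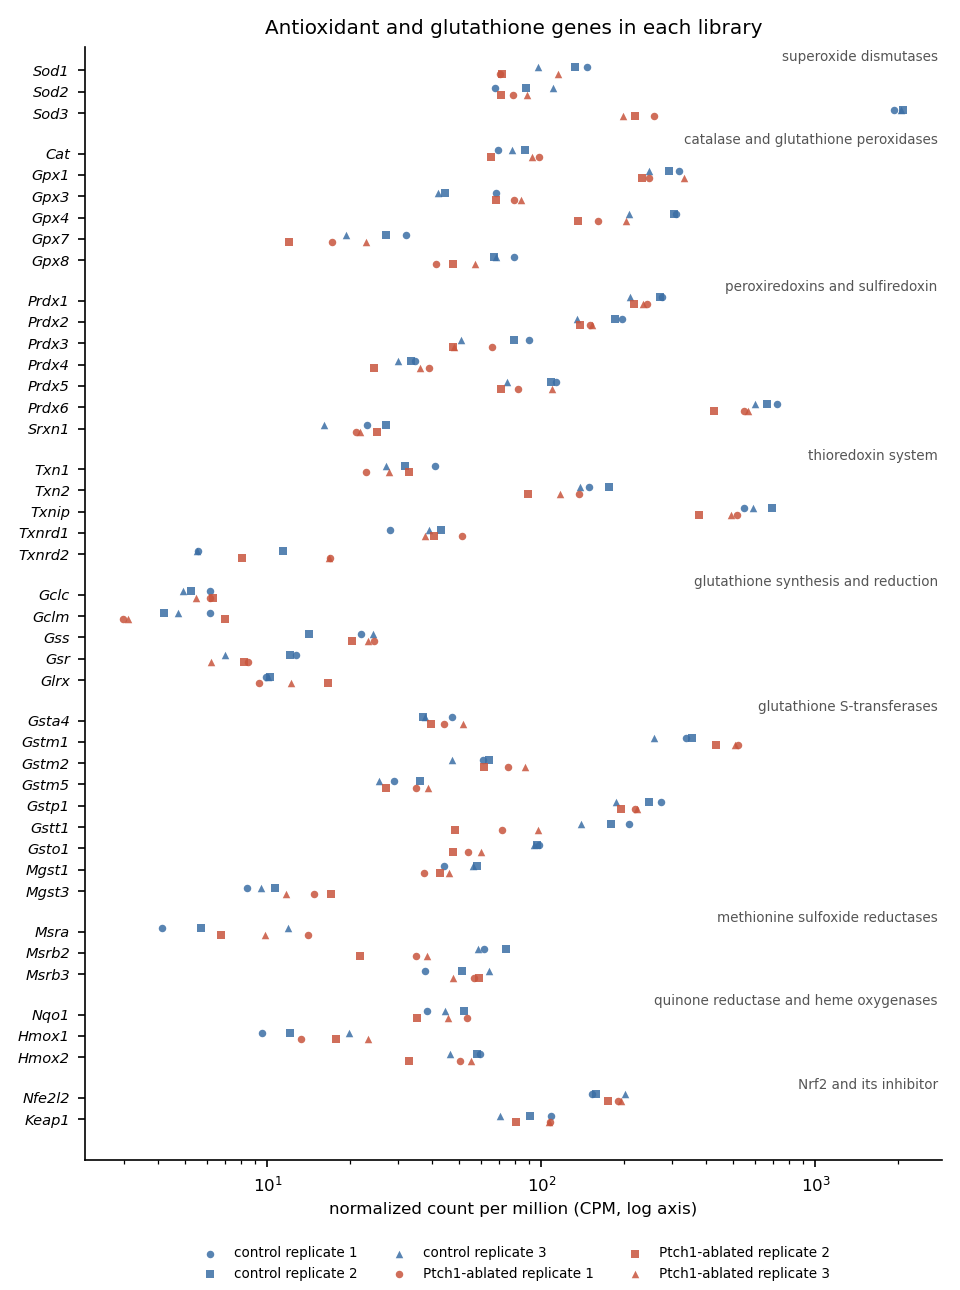
CPM of each of the 43 genes in each of the 6 libraries on a log axis (blue, control; red, Ptch1-ablated; the marker shape gives the replicate number), ordered by role. Sod3 stands at 1933 to 2088 CPM in controls and 198 to 258 in ablated libraries, while for most genes the red and blue points interleave.

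The thioredoxin system hands electrons from NADPH to peroxiredoxins and other proteins, and none of its 5 genes passed. Txnip, which binds thioredoxin and inhibits it, had 547, 695 and 594 CPM in controls and 518, 378 and 493 CPM in ablated libraries. Txn2, the mitochondrial thioredoxin, had 149, 177 and 138 CPM in controls and 137, 89.0 and 117 CPM in ablated libraries. In both genes every ablated library was below every control, by a narrow margin at ablated replicate 1, and the log2 fold changes were -0.40 ± 0.15 for Txnip and -0.44 ± 0.18 for Txn2 (SE). Txn1, the cytosolic thioredoxin, and Txnrd1, its selenium-containing reductase, overlapped between groups, at -0.26 ± 0.24 and 0.24 ± 0.23 (SE). Txnrd2, the mitochondrial reductase, had the highest fitted change of the 43 genes, 0.90 ± 0.43 (SE, 95% interval -0.04 to 1.83). Its libraries were uneven, with 5.60, 11.4 and 5.52 CPM in controls and 17.0, 8.07 and 16.8 CPM in ablated ones, so that ablated replicate 2 lay below control replicate 2.

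Genes for making and recycling glutathione were the least abundant role, at 60.3 ± 6.31 TPM in all in the control group against 75.9 ± 11.9 (SD, n = 3 each), and none of the 5 passed. Gclc and Gclm encode the catalytic and modifier subunits of glutamate-cysteine ligase, the enzyme that sets the rate of glutathione synthesis. Gclc had 6.15, 5.26 and 4.90 CPM in controls and 6.18, 6.33 and 5.48 CPM in ablated libraries. Gclm had 6.15, 4.21 and 4.73 CPM in controls and 2.98, 7.01 and 3.10 CPM in ablated libraries, where replicate 2 was more than both others together. The 95% interval of Gclc, -0.83 to 1.12, holds a 2-fold rise, and that of Gclm, -1.43 to 1.02, holds a 2-fold change in either direction. Gss, glutathione synthetase, was at 0.18 ± 0.27, Gsr, which regenerates reduced glutathione, at -0.47 ± 0.38, and Glrx, a glutaredoxin, at 0.34 ± 0.34 on the log2 scale (SE).

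Among the 9 glutathione S-transferases 2 fell and 1 rose, beside 3.80% and 4.68% of all genes tested, and nothing is read from these counts. Gstt1 (Entrez 14871), of the theta class, had 209, 179 and 139 CPM in controls and 71.7, 48.5 and 97.1 CPM in ablated libraries. The ablated libraries were all below the controls, and the log2 fold change was -1.28 ± 0.24 (SE, 95% interval -1.81 to -0.75), between -1.55 and -0.92 over 15 alternative settings, in each of which Gstt1 passed the adjusted p. Gsto1, of the omega class, which also reduces dehydroascorbate, had 98.2, 96.3 and 93.6 CPM in controls and 53.9, 47.7 and 60.3 CPM in ablated libraries. It was the next steadiest gene of the set among controls after Glrx, at a coefficient of variation of 2.38%, and its log2 fold change of -0.83 ± 0.17 (SE, 95% interval -1.20 to -0.47) also passed in 15 of 15 settings. Gstm1 (Entrez 14862), of the mu class, rose from 338, 354 and 257 CPM in controls to 520, 433 and 510 CPM in ablated libraries. The groups did not overlap, and the log2 fold change was 0.62 ± 0.15 (SE, 95% interval 0.30 to 0.95). The Gstm1 call was lost without control replicate 3 (0.50), without ablated replicate 1 (0.58) and without ablated replicate 3 (0.59).

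The other mu class members, Gstm2 and Gstm5, did not pass, at 0.38 ± 0.20 and 0.15 ± 0.24 (SE). Gstm1, Gstm2 and Gstm5 stand in one cluster on chromosome 3 in the RefSeq order, and summed to 864, 922 and 694 TPM in controls and 1448, 1290 and 1434 TPM in ablated libraries. These are close paralogs, so reads could be divided unevenly between them, and Gstm2 had expected counts that were not whole. Gstt1 lies between Gstt3 and Gstt4 on chromosome 10, in the order Ddt, Gstt3, Gstt1, Gstt4, Gstt2, Mif. Gstt3, which is not in the set, fell by 0.61 ± 0.16 on the log2 scale (SE, edgeR adjusted p = 0.0380), and Gstt2, named after its value was seen as the other measured theta class gene, was at -0.79 ± 0.25 (SE, edgeR adjusted p = 0.0761). The 3 measured theta class genes summed to 710, 638 and 552 TPM in controls and 337, 275 and 425 TPM in ablated libraries. Each ablated library was below each control in this sum, and each was above each control in the sum of Gstm1, Gstm2 and Gstm5. Tested mu class genes outside the set are not in that sum. Both sums are on the TPM scale, whose median over all genes was given above.

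Among the remaining transferases, Gstp1, of the pi class, was the third most abundant gene of the set in controls and the second in ablated libraries. It had 273, 247 and 188 CPM in controls and 219, 196 and 223 CPM in ablated libraries, with a log2 fold change of -0.15 ± 0.16 (SE). Gsta4, which conjugates the lipid peroxidation product 4-hydroxynonenal, was at 0.15 ± 0.21, and the microsomal Mgst1 at -0.34 ± 0.20. Mgst3 had 8.40, 10.7 and 9.46 CPM in controls and 14.7, 17.1 and 11.7 CPM in ablated libraries, higher in each ablated library than in each control, but with a 95% interval of -0.09 to 1.31 it did not pass. In ablated libraries Gstm1 ranked first of the 43 genes, at 1061 TPM (1001 to 1116), without overlap with Gstp1 at 961 TPM (944 to 971). In controls Gstm1 was seventh, at 594 TPM.

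Of the methionine sulfoxide reductases, Msrb2, the mitochondrial enzyme for the R form, fell. It had 61.6, 74.2 and 58.4 CPM in controls and 34.8, 21.7 and 38.2 CPM in ablated libraries, without overlap, and a log2 fold change of -1.04 ± 0.24 (SE, 95% interval -1.56 to -0.52). Without control replicate 2 the value was -0.93 and the call was lost, and without ablated replicate 2 it was -0.82, past the adjusted p and under the 2-fold minimum. Msrb3 had 37.4, 51.2 and 64.2 CPM in controls, which enclosed all 3 ablated libraries at 56.7, 59.3 and 47.7 CPM. Msra, for the S form, was scarce, at 4.13 to 11.9 CPM in controls and 6.80 to 14.1 in ablated libraries, and its interval of -0.54 to 1.52 allows more than a 2-fold rise.

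Nqo1, Hmox1, Gclc, Gclm, Srxn1 and Txnrd1, which Nrf2 is known to switch on, did not pass, whereas Gstm1, also known as a target of Nrf2, rose as given above. Nqo1, the quinone reductase, had 38.1, 52.1 and 44.6 CPM in controls and 53.3, 35.2 and 45.7 CPM in ablated libraries, and its log2 fold change was -0.01 ± 0.22 (SE, 95% interval -0.49 to 0.48). That interval keeps a change of 2-fold in either direction outside, as do those of Srxn1 and Txnrd1, whereas those of Gclc, Gclm and Hmox1 do not. Hmox1, the inducible heme oxygenase, had 9.59, 12.1 and 19.9 CPM in controls and 13.3, 17.8 and 23.4 CPM in ablated libraries, with a wide spread in both groups (log2 fold change 0.39 ± 0.35, SE). Hmox2, the constitutive heme oxygenase, was at -0.25 ± 0.23 (SE). Nfe2l2 itself had 153, 159 and 202 CPM in controls and 190, 175 and 195 CPM in ablated libraries, and Keap1 had 108, 91.1 and 70.7 CPM in controls and 107, 80.6 and 107 CPM in ablated libraries. Both overlapped between groups, each with a log2 fold change of 0.12 (SE 0.15 for Nfe2l2 and 0.20 for Keap1). RNA levels do not report the amount of Nrf2 protein or its place in the cell.

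Summed by role, the superoxide dismutases had the highest mean in the control group, although the transferases were above them in control replicate 1, and ranked behind the transferases, the peroxidases and the peroxiredoxins in the ablated group. They summed to 2896 ± 62.0 TPM against 827 ± 88.6 TPM (SD, n = 3 each), and the transferases, whose groups overlapped, to 2673 ± 326 against 3008 ± 158 TPM. Catalase with the glutathione peroxidases (2046 ± 281 against 1846 ± 258 TPM), the peroxiredoxins with sulfiredoxin (1877 ± 231 against 1831 ± 112 TPM), the thioredoxin system (883 ± 88.1 against 795 ± 85.4 TPM), and Nqo1 with the heme oxygenases (190 ± 13.2 against 211 ± 31.7 TPM) overlapped between groups. The methionine sulfoxide reductases (177 ± 19.8 against 133 ± 18.7 TPM) were lower in each ablated library. Higher in each ablated library were Nrf2 with Keap1 (212 ± 16.8 against 266 ± 9.94 TPM) and the genes for glutathione synthesis and reduction, on the scale whose median over all genes was given above.

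**Figure D4:**
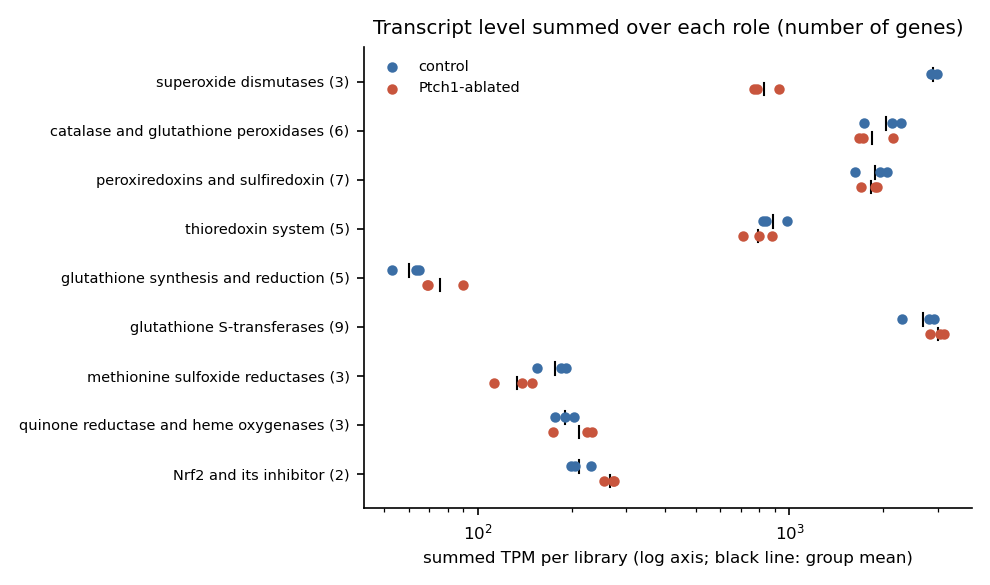
TPM summed over the genes of each of the 9 roles in each library, on a log axis, with the group mean as a black line (n = 3 each). The superoxide dismutases stand at 2896 ± 62.0 TPM in controls and 827 ± 88.6 in ablated libraries (SD), the widest separation of the 9 roles.

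Within each group, a single library was the lowest for a larger share of the 43 genes than of all genes tested. Control replicate 3 was the lowest of its group for 26 of the 43 genes (60.5%, against 33.0% of all genes tested), and ablated replicate 2 for 29 (67.4% against 38.1%). Their median deviation from the group mean was -0.14 in control replicate 3 and -0.17 in ablated replicate 2 on the log2 scale, where that of all genes was 0.0066 and -0.0069. Sod3 did not follow this, since control replicate 1 and ablated replicate 3 were the lowest of their groups. With ablated replicate 2 left out, the median log2 fold change of the 43 genes was -0.04, and without control replicate 3 it was -0.18. Of the 37 genes that did not pass, 26 had a 95% interval inside a 2-fold change in either direction, and for the other 11 a change of that size lies within the interval. Over all 43 genes 62.8% had an interval inside 2-fold, against 44.3% of all genes tested. The set also had the higher median level, 60.1 against 20.3 CPM.

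Other genes of the same pathways were taken from a list of 91, of which 87 were in the table and 80 had enough counts to be tested. This list too was chosen with earlier results of these data known, so the p-values given for its genes are read as description. None was past both the adjusted p and the 2-fold minimum with edgeR (0 of 80, against 5.49% of all genes), 17 (21.2%) had an unadjusted p under 0.05, against 20.6% of all genes, and DESeq2 called 3. Past the adjusted p alone were 3 (3.75%, against 8.48%), and all 3 fell. This direction depended on the scaling, with 5 higher and 1 lower of 6 by library totals only, and 6 higher and 3 lower of 9 by limma with either pseudocount. Pon2, a paraoxonase of intracellular membranes, had 181, 164 and 191 CPM in controls and 101, 107 and 97.1 CPM in ablated libraries (log2 fold change -0.82 ± 0.14, SE, edgeR adjusted p = 0.0034). Selenop, the secreted selenoprotein that carries selenium, had 817, 842 and 859 CPM in controls and 541, 585 and 612 CPM in ablated libraries (-0.53 ± 0.11, SE, edgeR adjusted p = 0.0100). The third was Gstt3, with 110, 101 and 96.3 CPM in controls and 64.0, 62.7 and 75.1 CPM in ablated libraries. The groups of these 3 genes did not overlap, and Pon2 passed in 15 of 15 alternative settings, Selenop in 11 and Gstt3 in 4.

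Over all genes tested 8.48% passed the adjusted p, and nothing is read from the counts by role that follow. By role, 1 of 12 further glutathione S-transferases and 1 of 8 genes for selenoprotein synthesis and selenium supply passed, each lower. So did 1 of 4 metallothioneins and paraoxonases, also lower. None passed among 4 genes that deliver copper to superoxide dismutases, 13 other peroxidases, thioredoxin-like proteins, glutaredoxins and Msrb1, 13 genes of glutathione transport and breakdown, 6 enzymes that make NADPH, or 20 partners, regulators and further targets of Nrf2. The next by adjusted p were Atp7a, the copper pump that loads secreted copper enzymes such as Sod3, Mt1, a metallothionein, and Akr1b8. The last is an aldo-keto reductase from the list of partners, regulators and further targets of Nrf2. Atp7a had 20.8, 32.5 and 27.0 CPM in controls and 42.4, 55.3 and 43.6 CPM in ablated libraries, above every control (log2 fold change 0.81 ± 0.23, SE, edgeR adjusted p = 0.0532). Mt1 had 31.3, 18.9 and 15.8 CPM in controls and 6.78, 11.5 and 11.4 CPM in ablated libraries (-1.15 ± 0.35, SE, edgeR adjusted p = 0.0688). Akr1b8 had 0, 1.05 and 0.306 CPM in controls and 4.99, 6.63 and 4.71 CPM in ablated libraries (edgeR adjusted p = 0.0751). For these 3 genes the groups did not overlap, and of the 15 alternative settings Atp7a passed the adjusted p in 3, Mt1 in 3 and Akr1b8 in 5.

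**Figure D5:**
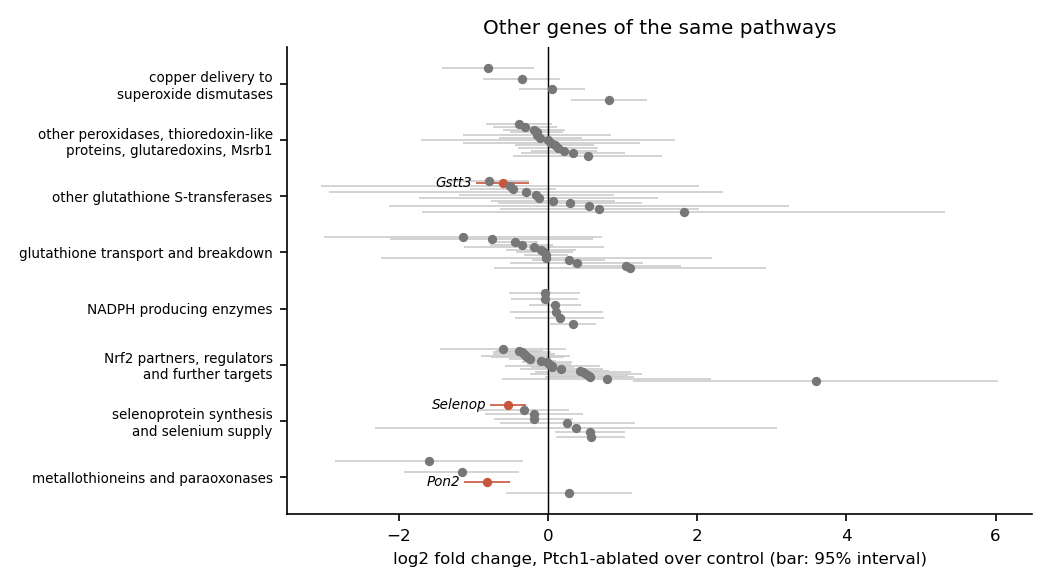
Log2 fold change (Ptch1-ablated over control, n = 3 each) with its 95% interval for the 80 tested genes of the same pathways outside the set, by list; red marks an edgeR adjusted p of at most 0.05 over all genes tested. The 3 red genes, Pon2, Selenop and Gstt3, lie between -0.82 and -0.53, and the points of each list fall on both sides of 0.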

How the data were processed

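Keratocyte RNA from 6 samples (3 control, 3 Ptch1-ablated) was analysed, with groups and replicate numbers from the sample titles. The study's methods describe biological replicates, and nothing further says how animals map to libraries. The labels name a TruSeq kit, whereas the paper describes ribosomal depletion and BGISEQ sequencing. The authors aligned reads with Bowtie2 2.2.5 and quantified genes with RSEM 1.2.12; the processing notes name build mm9. The deposited table holds each RSEM expected count per gene (an estimated count, not normalized by the authors), with TPM and FPKM values scaled by the authors. The authors' group averages and FPKM values were not used. Of the expected counts 18.6% were not whole, including those of 8 genes of the set.

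Expected counts were rounded, filtered with filterByExpr (13888 of 17606 genes kept), TMM-scaled and compared with edgeR 4.0.16 (glmQLFit, glmQLFTest, two-sided, no covariates, Benjamini-Hochberg over all genes tested) in R 4.3.3. Calls used an adjusted p of at most 0.05 and, where stated, a fold change of at least 2. A log2 fold change is the ablated over the control group. DESeq2 1.42.0 and limma 3.58.1 on log2(TPM + 1) and log2(TPM + 0.1) were alternatives, beside other scalings, no filter, a replicate block and leaving out libraries. The tests were checked on simulated data. Promoters came from RefSeq (GRCm38.p6), since the deposited table has no coordinates, and motifs were searched on both strands. Protein sequences were not used here.

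The genes of the set, the pathway lists and the marker lists were chosen with earlier results of these data known. Named were all 43 genes, the 6 other pathway genes with the lowest adjusted p or any called, Ptch1, Gli1, Hhip and markers. Gstt2, Dpep2 and Mt2 were named after their values were seen.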

Additional observations from a re-analysis of the deposited data

How the results depend on the processing

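Among the genes of the set, Sod3 (log2 fold change -3.28 to -2.96), Gstt1 and Gsto1 passed the adjusted p in all 15 alternatives, and no gene that passed changed direction. The count past both thresholds was 3, ranged from 2 to 3 when single libraries were left out, was 1 (Sod3) without control replicate 1 and ablated replicate 2 together, and was 6 with no fold minimum. Past the adjusted p alone it was 6, 4 to 6 when single libraries were left out, and 8 and 7 by limma (4 and 3 of them higher). For the other pathway genes the count past both thresholds was 0, and it became 3 with DESeq2 (Dpep2, Akr1b8 and Mt1), 1 with scaling by library totals only (Dpep2), 4 with limma, whether TPM + 1 or TPM + 0.1 was used (Dpep2, Akr1b8, Mt1 and Mt2), 0 to 1 when single libraries were left out (Akr1b8 without control replicate 1 or control replicate 2) and 3 with no fold minimum. Past the adjusted p alone it was 3, with 9 by DESeq2, 6 by library totals only (5 higher), 9 by limma with either pseudocount (6 higher), and 2 to 3 when single libraries were left out. Over all genes, 763 passed both thresholds and 1178 the adjusted p alone, with 611 to 756 past both when single libraries were left out. Of the calls 61.2% were higher in the ablated group, against 73.0% by library totals only and 73.1% and 73.4% by limma. The median log2 fold change of the set was -0.12, and it became 0.042 by library totals only and 0.099 by limma with either pseudocount, where the medians of all genes were 0.17, 0.19 and 0.22; it ranged from -0.18 to -0.04 when single libraries were left out. The cause of these shifts was not tested. Gpx3 and Gstm2 passed with limma on both pseudocounts, and Mgst3 with log2(TPM + 1).

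The replicate numbers were not shown to pair the samples, since deviations of same-numbered libraries correlated at -0.022, -0.063 and 0.039. With the replicate number as a block, 3 genes of the set passed both thresholds and 5 the adjusted p (Gpx4 was lost), 0 and 2 of the other pathway genes did (Gstt3 was lost), 663 of all genes were called, and the median log2 fold change of the set was -0.11. Intervals held a 2-fold change for 11 genes of the set that did not pass. Among them were Gclc, Gclm and Msra, which had low counts, and also Sod1. How depth and the spread between libraries share in this was not tested.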
